A study of Oryza sativa Japonica Group with 12 samples.

Results

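Polar auxin transport moves the plant hormone auxin from cell to cell and so sets its local concentration. Auxin influx carriers of the AUX1 type take it into cells at the plasma membrane, and PIN proteins carry it out. PIN proteins with a long central hydrophilic loop sit in the plasma membrane, often on a single side of the cell, and give the flow its direction. PIN5-type proteins have a short loop, are known mainly from the endoplasmic reticulum, and move auxin within the cell. In a seedling these carriers are known for their part in root growth, root gravitropism, lateral root formation and crown root formation.

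The genes described here are 9 auxin transporter genes of rice (Oryza sativa, Japonica group), 8 of the PIN family and the influx carrier gene AUX1, taken by locus number from a deposited table of 29358 loci. The long-loop PIN genes were PIN1A (LOC_Os06g12610), PIN1B (LOC_Os02g50960), PIN1C (LOC_Os11g04190), PIN2 (LOC_Os06g44970), PIN10A (LOC_Os01g45550) and PIN9 (LOC_Os01g58860). The short-loop genes were PIN5A (LOC_Os01g69070) and PIN5B (LOC_Os08g41720), and AUX1 was LOC_Os01g63770. Published names of PIN1A, PIN1B and PIN1C, and of the PIN5 genes, are used interchangeably in places, so the locus number is what identifies each gene. PIN1C has a near-identical relative, PIN1D (LOC_Os12g04000), and reads of such a pair may have been shared between the copies, so the level of PIN1C is uncertain to that extent.

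The study measured messenger RNA in whole 5-day-old seedlings, with 3 libraries in each of 4 groups. The groups were raf-b2/3 seedlings after 6 h in 800 mM mannitol, raf-b2/3 seedlings without mannitol (control), WT (NIP) seedlings after 6 h in 800 mM mannitol, and WT seedlings without mannitol (control). Mannitol is a sugar alcohol that draws water out of plant cells, and the study used it to ask how the B2 and B3 RAF protein kinases affect gene expression under osmotic stress. The genotype label calls raf-b2/3 a knockdown of B2/3 RAF, while the protocols call it a mutant, and neither names the loci, so no targeted gene could be checked. Nothing in the labels ties a library to its own batch of plants. The p-values below therefore rest on library-to-library spread, part of which may be technical.

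The files gave levels in FPKM, a unit that divides a gene's fragments by its length and by library depth, so that values can be compared between genes as well as between libraries. Between 37534836 and 39792489 fragments lay behind the values of a library, and a library held 20531 to 21222 loci at 1 FPKM or above. Tissue markers moved with the treatment. The FPKM of 8 root markers, among them the silicon transporter genes LSI1 and LSI2, summed to 72.69 to 120.9 in the raf-b2/3 mannitol libraries and 833.7 to 1054 in the raf-b2/3 control libraries. In WT it summed to 97.69 to 119 under mannitol and to 817.9, 193.9 and 903.8 in control libraries 1, 2 and 3. WT control 2 therefore stood apart from the other control libraries. Its root marker sum was above that of every mannitol library, but nearer to those than to the other controls. The tests found 7 of the 8 root markers lower under mannitol in each genotype (median log2 change -3.65 in raf-b2/3 and -2.35 in WT), and 0 of 8 were called between genotypes by limma with or without mannitol (unadjusted p under 0.05 for 1 with and 3 without). The sum of 8 markers of green shoot tissue ran from 21020 to 25230 under mannitol and from 32220 to 36120 in controls of raf-b2/3, and from 18730 to 22200 and from 31720 to 34540 in WT. In each genotype 4 of 8 were called lower and 4 were not called. The means of CAB1R, PSAD and PSBO were higher under mannitol in raf-b2/3, and in WT only that of CAB1R. Of all tested loci, 26.7% were called lower under mannitol in raf-b2/3 and 25.5% in WT. Between genotypes, 1 of the 8 shoot markers was called, higher in raf-b2/3 under mannitol. Of all tested loci, 15.8% were called between genotypes under mannitol and 1.81% without it. No marker of either list was listed at 0 in a group. In whole seedlings, fewer cells of a type and less RNA per cell cannot be told apart.

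PIN1B was the most abundant of the 9 transcripts in every group, followed by AUX1 and then PIN1A, and the library ranges of these 3 genes did not overlap within any group. PIN1B made up 62.1% of the summed FPKM of the 8 PIN genes in raf-b2/3 mannitol, 58.2% in raf-b2/3 control, 65.5% in WT mannitol and 60.8% in WT control (means of 3 libraries). The next levels were those of PIN5A and PIN2, whose library ranges overlapped in both raf-b2/3 groups and in WT control. In WT mannitol PIN5A ranked below PIN2 and PIN10A, although its libraries overlapped those of both, and in WT control they overlapped those of PIN1A. PIN1C, PIN10A, PIN5B and PIN9 filled the lower places, and PIN9 and PIN5B had the lowest means in both control groups. The long-loop PIN genes summed to 42.3 ± 1.21 FPKM in raf-b2/3 mannitol, 37.3 ± 2.08 in raf-b2/3 control, 39.5 ± 2.01 in WT mannitol and 34.9 ± 3.35 in WT control (SD, n = 3 each). The short-loop pair summed to 4.21 ± 0.503 FPKM in raf-b2/3 mannitol, 3.40 ± 0.874 in raf-b2/3 control, 1.80 ± 0.737 in WT mannitol and 3.84 ± 0.802 in WT control, so WT mannitol had the lowest mean, with WT mannitol 2 (2.60) above raf-b2/3 control 2 (2.51).

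**Figure D1:**
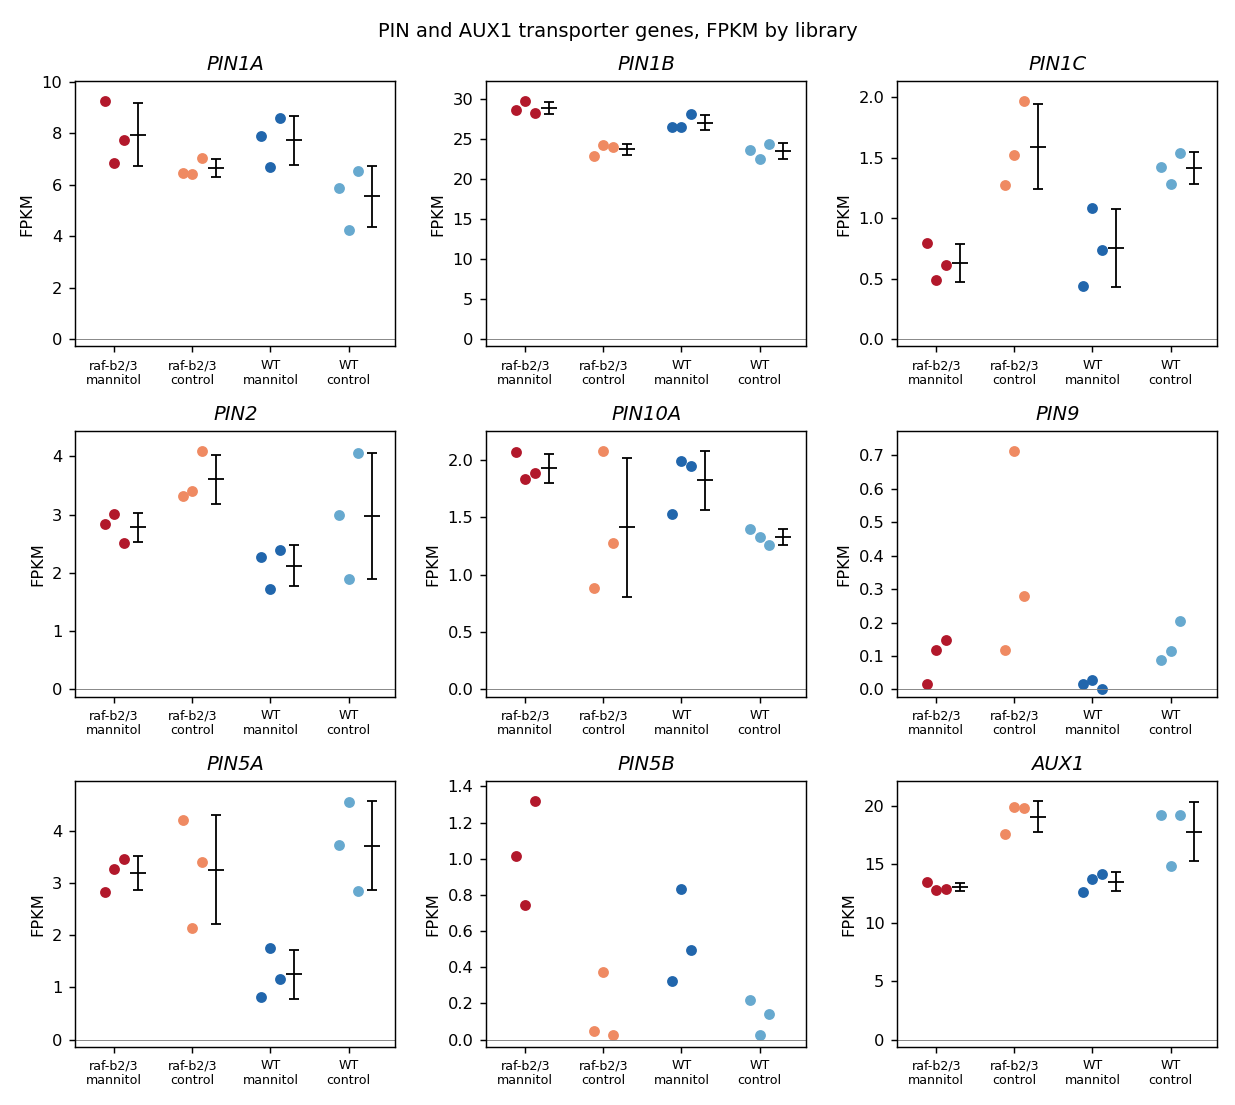
FPKM of the 9 transporter genes (y axis, linear, 1 panel per gene) in each library of the 4 groups (x axis), with the mean and SD of 3 libraries beside the points except for PIN9 and PIN5B, whose counts were low. PIN5A was lowest in the 3 WT mannitol libraries, at 0.822 to 1.76 FPKM, against 2.83 to 3.47 FPKM in raf-b2/3 mannitol.

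PIN5A, a gene of the short-loop type, was the tested member whose levels differed most between the genotypes under mannitol. It had 2.83, 3.26 and 3.47 FPKM in raf-b2/3 mannitol libraries 1 to 3 and 4.21, 2.14 and 3.41 FPKM in raf-b2/3 control. In WT it had 0.822, 1.76 and 1.16 FPKM under mannitol and 3.74, 4.56 and 2.85 FPKM in control. The WT mannitol libraries lay below those of each other group without overlap, while raf-b2/3 mannitol and raf-b2/3 control overlapped. Behind these values were 519 and 537 fragments in raf-b2/3 mannitol and control, and 207 and 618 fragments in WT mannitol and control, summed over 3 libraries. In WT, PIN5A fell under mannitol, with a mean 2.97-fold lower than in control.

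All tests used limma on log2(FPKM + 1) over the 22371 loci that reached 1 FPKM in at least 3 libraries, and a change is called here where the Benjamini-Hochberg adjusted p over all of them was under 0.05. This scale compresses differences at low FPKM. On it the change of PIN5A was 0.01 in raf-b2/3 (95% interval -0.43 to 0.44, adjusted p 0.984) and -1.07 in WT (SE 0.20, adjusted p 5.2e-04). Under mannitol PIN5A was 2.55-fold higher in raf-b2/3 than in WT (log2 difference 0.91, SE 0.20, 95% interval 0.48 to 1.35, adjusted p 0.0090). Without mannitol the genotypes were not told apart, with a log2 difference of -0.16 and a 95% interval of -0.60 to 0.27 (adjusted p 0.757). The difference between the responses, tested as an interaction, was 1.08 (SE 0.28, 95% interval 0.46 to 1.70, unadjusted p 0.0025). It missed the threshold after adjustment over all loci (adjusted p 0.0659), so the responses were not shown to differ by this rule.

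The calls on PIN5A held under every alternative that was run, with an adjusted p of 2.0e-04 to 0.0038 for the WT response and of 0.0042 to 0.0468 for the genotype difference under mannitol. The interaction had an adjusted p of 0.0492 to 0.170 over the alternatives and passed only without raf-b2/3 control 1. Without WT control 2, the library with few root markers, the WT response of PIN5A was -0.95 (adjusted p 0.0025). In the mannitol libraries, in which PIN5A differed, the root marker LSI1 had 15.9 ± 3.84 FPKM in raf-b2/3 and 35.1 ± 1.30 FPKM in WT, and RCC3 had 55.1 ± 17.6 FPKM in raf-b2/3 and 41.0 ± 3.97 FPKM in WT (SD, n = 3 each). Neither difference was called (limma adjusted p 0.0758 and 0.548). The shoot marker RCA, for Rubisco activase, was higher in raf-b2/3 than in WT under mannitol (log2 0.60, adjusted p 0.0193). The other 7 of the 8 shoot markers were not called, and the median log2 difference of the 8 was 0.08. None of the 8 root markers was called under mannitol, with a median of 0.06. The part of tissue make-up in the PIN5A difference was not tested. The authors' deposited table gives PIN5A a log2 fold change of -0.108 in raf-b2/3 (p 0.683) and of -1.69 in WT (p 1.47e-08), without saying whether its p-values are adjusted.

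PIN5B, the other short-loop gene of the 9, is known in rice as an endoplasmic reticulum protein that affects auxin homeostasis. It had few fragments and did not reach the level needed for the test. Its FPKM was 1.02, 0.744 and 1.32 in raf-b2/3 mannitol and 0.0489, 0.374 and 0.0240 in raf-b2/3 control. It was 0.321, 0.833 and 0.497 in WT mannitol and 0.219, 0.0235 and 0.143 in WT control. Each mannitol library was above every control library of the same genotype, and the genotypes overlapped within each treatment. Summed over 3 libraries, PIN5B had 126 fragments in raf-b2/3 mannitol (exact Poisson 95% interval 105.0 to 150.0) against 19 in raf-b2/3 control (11.4 to 29.7), and 69 in WT mannitol (53.7 to 87.3) against 16 in WT control (9.1 to 26.0). These intervals cover counting error only. Of the 19 fragments in raf-b2/3 control, 16 came from control 2. In a fit with no filter on low values PIN5B rose under mannitol in both genotypes, by 0.82 in raf-b2/3 and 0.45 in WT on the log2(FPKM + 1) scale (limma adjusted p 7.8e-04 and 0.0258), and the same fit found no genotype difference under mannitol (0.39, adjusted p 0.116). In WT, PIN5B was therefore higher under mannitol and PIN5A lower. PIN5C (LOC_Os09g32770), a PIN5-type gene outside the 9, was too low to be tested. Summed over 3 libraries, it had 12 fragments in raf-b2/3 mannitol against 77 in raf-b2/3 control. In WT it had 9 under mannitol against 74 in control, so the PIN5-type genes did not move together.

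PIN1B, for a long-loop efflux carrier, had 28.6, 29.8 and 28.3 FPKM in raf-b2/3 mannitol and 22.9, 24.2 and 24.0 FPKM in raf-b2/3 control. It had 26.5, 26.5 and 28.2 FPKM in WT mannitol and 23.6, 22.5 and 24.4 FPKM in WT control. Mannitol and control libraries did not overlap in either genotype, and the libraries of a group lay within a narrow range. PIN1B rose under mannitol in raf-b2/3 (log2 0.27, SE 0.06, adjusted p 9.8e-04) and in WT (log2 0.19, SE 0.06, adjusted p 0.0085), which were ratios of 1.22 and 1.15. All loci tested had a median log2 change of 0.07 in raf-b2/3 and 0.09 in WT, and that WT median was 0.0032 after median-of-ratios scaling and -0.012 after quantile normalization. With the median so shifted, the WT rise of PIN1B was 0.09 (adjusted p 0.141) and 0.07 (adjusted p 0.301), so its call in WT depended on the scaling, while in raf-b2/3 the rise was 0.20 and 0.18 and kept its call (adjusted p 0.0051 and 0.0109). The raf-b2/3 mannitol libraries of PIN1B all lay above the WT mannitol libraries, with a ratio of means of 1.07, but this difference was not called (log2 0.09, adjusted p 0.316). The authors' deposited log2 fold change of PIN1B under mannitol was 0.21 in raf-b2/3 (deposited p 0.0124) and 0.09 in WT (deposited p 0.226).

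PIN1A, also of the long-loop type, had 9.26, 6.85 and 7.73 FPKM in raf-b2/3 mannitol and 6.47, 6.41 and 7.05 FPKM in raf-b2/3 control. It had 7.91, 6.69 and 8.58 FPKM in WT mannitol and 5.87, 4.24 and 6.53 FPKM in WT control. The treatments overlapped in raf-b2/3 and did not in WT, where the lowest value was that of WT control 2. PIN1A rose under mannitol in WT (log2 0.43, SE 0.14, adjusted p 0.0176), whereas in raf-b2/3 the change was 0.22 (95% interval -0.08 to 0.52, adjusted p 0.186), and the difference of -0.21 between the responses was not called (adjusted p 0.666). The WT call was lost without WT control 2 (0.27, adjusted p 0.0755), without WT mannitol 1 (0.41, adjusted p 0.0502), without WT mannitol 3 (0.36, adjusted p 0.0700) and under quantile normalization (0.28, adjusted p 0.0890).

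PIN1C had lower levels under mannitol in both genotypes. It reached the level needed for the test mainly through control libraries, so its lower calls carry no weight of their own. It had 0.794, 0.486 and 0.609 FPKM in raf-b2/3 mannitol and 1.28, 1.52 and 1.97 FPKM in raf-b2/3 control. It had 0.442, 1.09 and 0.735 FPKM in WT mannitol and 1.42, 1.28 and 1.54 FPKM in WT control. Mannitol and control libraries did not overlap in either genotype, and the control mean was 2.52 times the mannitol mean in raf-b2/3 and 1.87 times in WT. The log2 change was -0.66 in raf-b2/3 (SE 0.15, adjusted p 0.0021) and -0.48 in WT (SE 0.15, adjusted p 0.0146). On fragments instead of log2(FPKM + 1), limma-voom put it at -1.34 and -0.98. The WT call was lost without WT mannitol 1, the lowest of its group (-0.34, adjusted p 0.0720). PIN1D, which may share reads with PIN1C, had 0.324 ± 0.107 FPKM in raf-b2/3 mannitol and 1.09 ± 0.105 in raf-b2/3 control, and 0.697 ± 0.309 in WT mannitol and 1.10 ± 0.226 in WT control (SD, n = 3 each).

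PIN2, the efflux carrier known for root gravitropism and for its expression in the root tip, had 2.83, 3.01 and 2.52 FPKM in raf-b2/3 mannitol and 3.32, 3.40 and 4.09 FPKM in raf-b2/3 control. It had 2.26, 1.73 and 2.39 FPKM in WT mannitol and 3.00, 1.89 and 4.05 FPKM in WT control. Its 3 raf-b2/3 mannitol libraries lay below the raf-b2/3 controls and above the WT mannitol libraries, while the WT treatments overlapped through WT control 2. The log2 changes under mannitol were -0.28 in raf-b2/3 (adjusted p 0.171) and -0.32 in WT (adjusted p 0.125), and neither was called. Without WT control 2 the WT change of PIN2 was -0.53 and passed (adjusted p 0.0060), and it also passed under quantile normalization (-0.41, adjusted p 0.0455). The higher level of PIN2 in raf-b2/3 than in WT was not called under mannitol (0.28, adjusted p 0.313) or without it (0.24, adjusted p 0.550), and without WT control 2 the difference in controls was 0.03. The authors' deposited log2 fold change of PIN2 under mannitol was -0.45 in raf-b2/3 (deposited p 0.00706) and -0.59 in WT (deposited p 0.0197).

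PIN10A, also named PIN3t and known in rice for a role in drought tolerance, had 2.07, 1.83 and 1.88 FPKM in raf-b2/3 mannitol and 0.889, 2.08 and 1.28 FPKM in raf-b2/3 control. It had 1.53, 1.99 and 1.95 FPKM in WT mannitol and 1.40, 1.33 and 1.26 FPKM in WT control. In WT the mannitol libraries all lay above the controls, and in raf-b2/3 control 2 overlapped the mannitol libraries. The changes of 0.31 in raf-b2/3 (adjusted p 0.0983) and 0.27 in WT (adjusted p 0.136) were not called. Without raf-b2/3 control 2 both passed, at 0.50 in raf-b2/3 (adjusted p 0.0052) and 0.27 in WT (adjusted p 0.0494).

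PIN9, of a PIN clade known from monocots, had the fewest fragments of the 9 genes over the 12 libraries and was not tested. It had 1, 8 and 10 fragments in raf-b2/3 mannitol and 8, 50 and 19 in raf-b2/3 control. It had 1, 2 and 0 fragments in WT mannitol and 6, 8 and 14 in WT control. The sums were 19 (exact Poisson 95% interval 11.4 to 29.7) against 77 (60.8 to 96.2) in raf-b2/3, where raf-b2/3 control 2 held most of the fragments, and 3 (0.6 to 8.8) against 28 (18.6 to 40.5) in WT. The treatments overlapped in raf-b2/3 and did not in WT. With no filter, the change of PIN9 was -0.30 in raf-b2/3 and -0.16 in WT on the log2(FPKM + 1) scale (limma adjusted p 0.0562 and 0.298), and on fragments limma-voom gave -1.97 (adjusted p 0.0532) and -2.91 (adjusted p 0.0335), so its call in WT rested on the scale used. The authors' deposited log2 fold change of PIN9 under mannitol was -2.04 in raf-b2/3 (deposited p 0.0167) and -3.32 in WT (deposited p 0.0129).

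AUX1, the influx carrier known in rice for lateral root initiation and root hair growth, had 13.5, 12.8 and 12.9 FPKM in raf-b2/3 mannitol and 17.6, 19.9 and 19.8 FPKM in raf-b2/3 control. It had 12.6, 13.8 and 14.2 FPKM in WT mannitol and 19.2, 14.9 and 19.3 FPKM in WT control. Mannitol libraries lay below the controls in both genotypes, and WT control 2 was the control nearest to them. AUX1 fell to a mean of 0.684 times the control in raf-b2/3 (log2 -0.51, SE 0.09, adjusted p 4.8e-04) and 0.760 times in WT (log2 -0.36, SE 0.09, adjusted p 0.0047). Without WT control 2 the WT change was -0.48 (adjusted p 2.2e-04). The fall was called in both genotypes under every alternative, with adjusted p of 5.1e-05 to 0.0029 in raf-b2/3 and 2.2e-04 to 0.0240 in WT. Root markers were lower in the same libraries as AUX1 and PIN1C, including the lower AUX1 value of WT control 2, and their part in these changes was not tested.

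**Figure D2:**
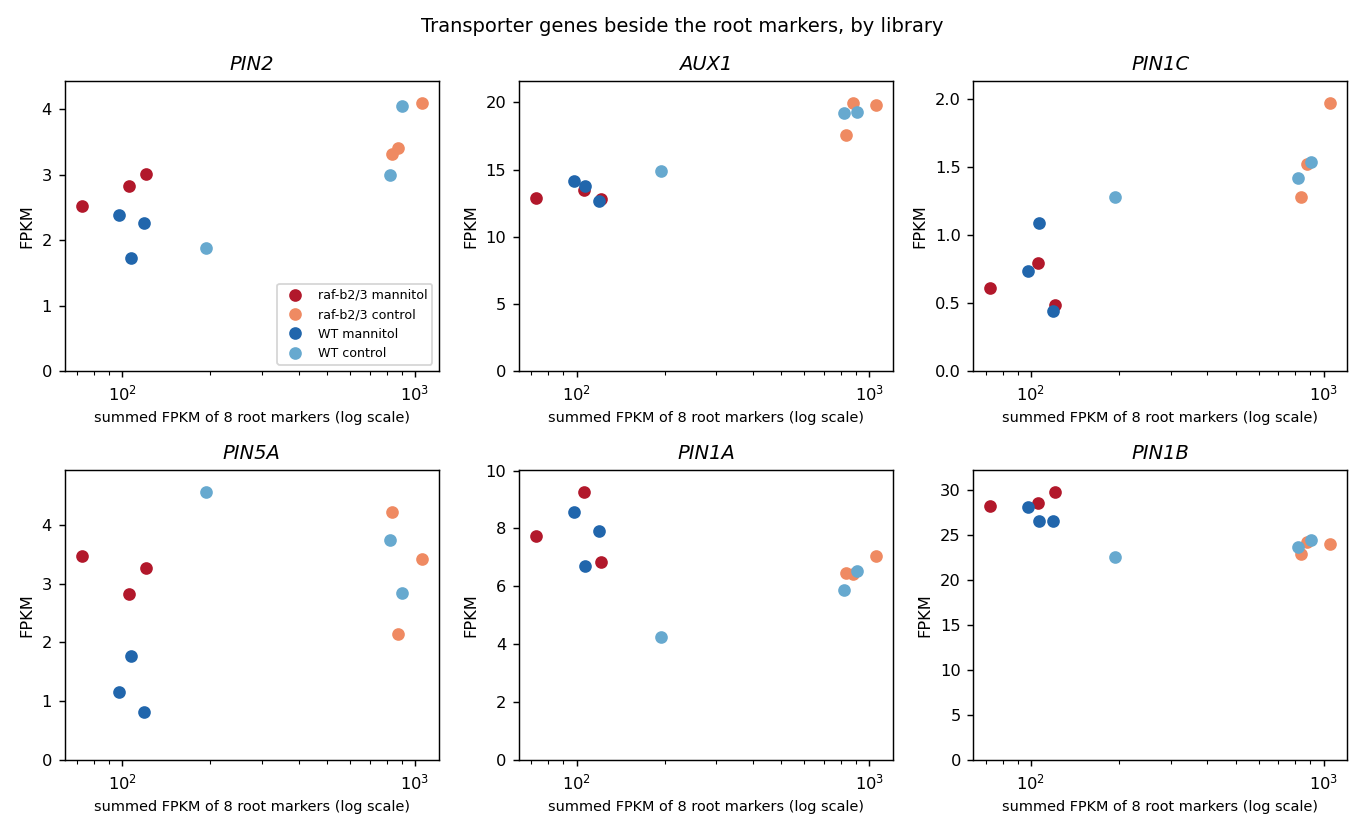
FPKM of 6 transporter genes (y axes, linear) against the summed FPKM of 8 root markers (x axes, log scale) in the 12 libraries, coloured by group. WT control 2 lies at 193.9 on the x axis, away from the other controls at 817.9 to 1054. AUX1 and PIN2 were lowest of the WT controls there, at 14.9 and 1.89 FPKM, and PIN5A was highest, at 4.56 FPKM.

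Over the 7 genes that could be tested, mannitol raised 1 and lowered 2 in raf-b2/3, PIN1B up and PIN1C and AUX1 down, with 4 not called. In raf-b2/3, 62.2% of all tested loci were called, 35.6% higher and 26.7% lower. In WT mannitol raised 2, PIN1A and PIN1B, and lowered 3, PIN1C, PIN5A and AUX1, with 2 not called, where 63.3% of all loci were called, 37.7% higher and 25.5% lower. The shares of transporter genes called, 3 of 7 and 5 of 7, are to be read against these backgrounds. Under quantile normalization all loci split into 6692 higher and 7120 lower in raf-b2/3 and 6775 higher and 7033 lower in WT, against 7957 and 5966, and 8440 and 5711, on the deposited scale. The median log2 change of the 7 genes was 0.01 in raf-b2/3 and -0.32 in WT, beside the medians of 0.07 and 0.09 over all loci. The 7 tested are those with enough signal, and PIN1C among them passed mainly through its control libraries. Its lower calls in these counts therefore carry no weight of their own.

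Without mannitol 0 of the 7 genes differed between raf-b2/3 and WT by limma, where 1.81% of all loci were called, 1.22% higher and 0.590% lower. None of the 7 had an unadjusted p under 0.05, and limma-voom also called 0. The differences ran from -0.16 (PIN5A) to 0.24 (PIN2). Under mannitol 1 of 7 differed, PIN5A, which was higher in raf-b2/3, where 15.8% of all loci were called, 8.37% higher and 7.47% lower. The interaction called 0 of 7, where 2.98% of all loci were called, 1.02% higher and 1.96% lower. PIN5A was the only gene of the 7 with an unadjusted interaction p under 0.05.

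**Figure D3:**
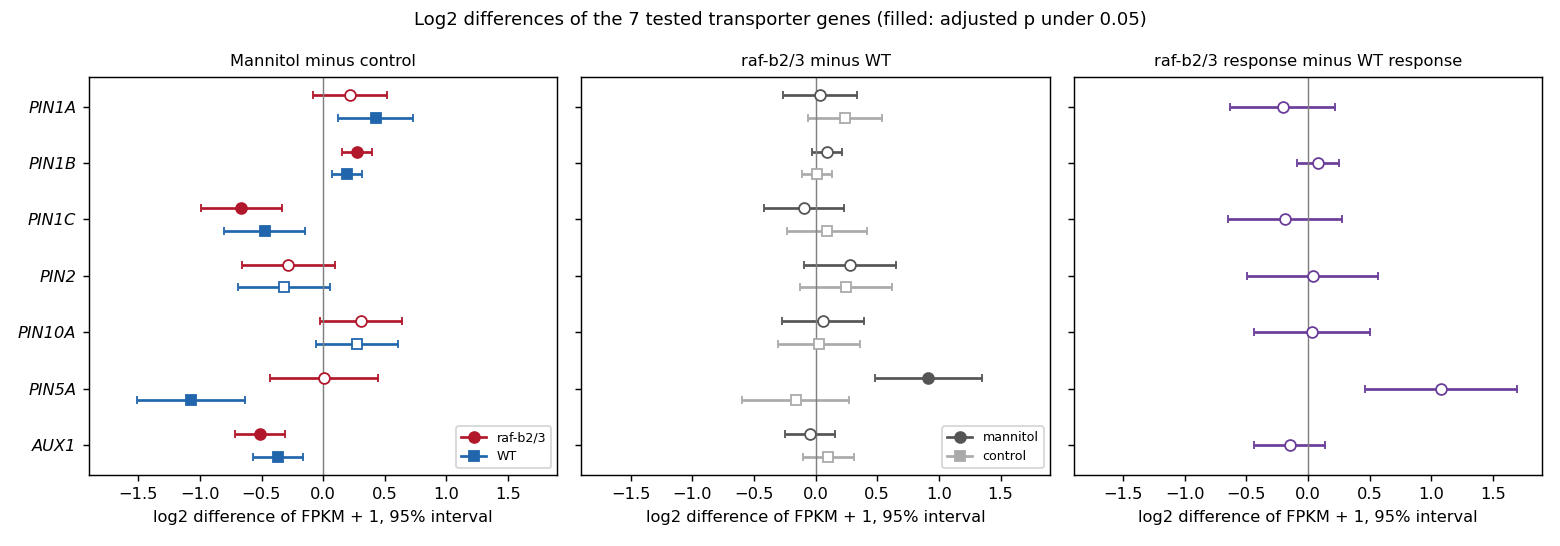
Log2 differences of FPKM + 1 (x axes) with 95% intervals for the 7 tested genes (y axis), for mannitol minus control in raf-b2/3 (circles) and WT (squares), for raf-b2/3 minus WT under mannitol (circles) and in control (squares), and for the interaction. Filled points had an adjusted p under 0.05. PIN5A stands at 0.01 in raf-b2/3 and -1.07 in WT, and at 0.91 for raf-b2/3 minus WT under mannitol, while the interaction panel holds no filled point.

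The genes with profiles most like those of the called members were found among 78 auxin and marker genes, by the root-mean-square (RMS) difference between centred log2(FPKM + 1) profiles over the 12 libraries. AUX1 and PIN1C were each other's nearest, at 0.14, compared with RMS sizes of 0.24 and 0.32 for their own profiles. ARF8 (0.14) was the next nearest to AUX1 and ABCB14 (0.16), an auxin transporter of the ABC family, to PIN1C. PIN1B lay nearest to the auxin response factor genes ARF7 and ARF22 (0.08 each, own RMS 0.13). PIN1A lay nearest to PID (0.15), for a kinase that phosphorylates PIN proteins in Arabidopsis, and to PIN1B (0.17, own RMS 0.24). PIN5A had no close neighbour, with YUCCA2 at 0.33 and the Rubisco gene RBCS3 at 0.36 against an own RMS of 0.48. YUCCA2, whose family makes auxin from indole pyruvate, had 0.890, 0.517 and 0.576 FPKM in raf-b2/3 mannitol and 0.677, 0.768 and 0.764 in raf-b2/3 control. It had 0.101, 0 and 0.194 FPKM in WT mannitol (4, 0 and 8 fragments) and 0.950, 0.674 and 0.954 in WT control. WT mannitol was thus the low group for YUCCA2 as for PIN5A. YUCCA2 was picked for its likeness to PIN5A in these libraries, so the shared low group carries no weight of its own. YUCCA2 and PID were both below the level needed for the test, where the log2(FPKM + 1) scale compresses differences.

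Other auxin carriers also had lower levels under mannitol. Of 9 further carrier genes, 6 could be tested, and 6 were lower in raf-b2/3 (median log2 -0.59) and 3 in WT (median -0.47), with none higher, beside 26.7% and 25.5% of all loci called lower in raf-b2/3 and WT. PIN1D and AUX2 among them reached the level needed for the test mainly through control libraries. Their lower calls therefore carry no weight of their own. Genes named in the rest of this paragraph and in the next were picked after their values were seen, except GH3-8 and YUCCA5. AUX3, a relative of AUX1, changed by -0.96 in raf-b2/3 and -0.88 in WT (limma adjusted p 4.6e-04 and 7.8e-04). It had 2.07, 2.51 and 1.71 FPKM in raf-b2/3 mannitol and 4.64, 5.16 and 5.18 FPKM in raf-b2/3 control, and 0.925, 1.26 and 1.49 FPKM in WT mannitol, against 3.18 ± 1.03 FPKM in WT control (SD, n = 3). The raf-b2/3 libraries of AUX3 lay above the WT libraries in each treatment, but the difference was not called (adjusted p 0.0888 under mannitol and 0.158 without). AUX2 changed by -0.56 and -0.63, and ABCB14 by -0.62 and -0.63, in raf-b2/3 and WT. PIN1D (-0.66, adjusted p 0.0015), AUX4 (-0.44, adjusted p 0.0090) and AUX5 (-0.40, adjusted p 0.0132) were called lower in raf-b2/3. In WT, PIN1D (-0.32), AUX4 (-0.18) and AUX5 (-0.10) were not called. The interaction was not called for any of these 6, with adjusted p from 0.430 (AUX5) to 0.988 (ABCB14), so their responses were not shown to differ. Of 3 regulators of carriers 2 were tested, and 1 was higher and 1 lower in raf-b2/3 and 1 higher in WT. GNOM1, whose Arabidopsis relative GNOM acts in the trafficking of PIN proteins, changed by -0.20 in raf-b2/3 (adjusted p 0.0459) and by -0.05 in WT (adjusted p 0.601). LAZY1, a gene of shoot gravitropism that affects lateral auxin transport, rose 2.25-fold in raf-b2/3 and 1.78-fold in WT (adjusted p 9.9e-06 and 1.6e-04). Root markers were lower in the same mannitol libraries, and their part in the changes of these carriers and of the auxin genes that follow was not tested.

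**Figure D4:**
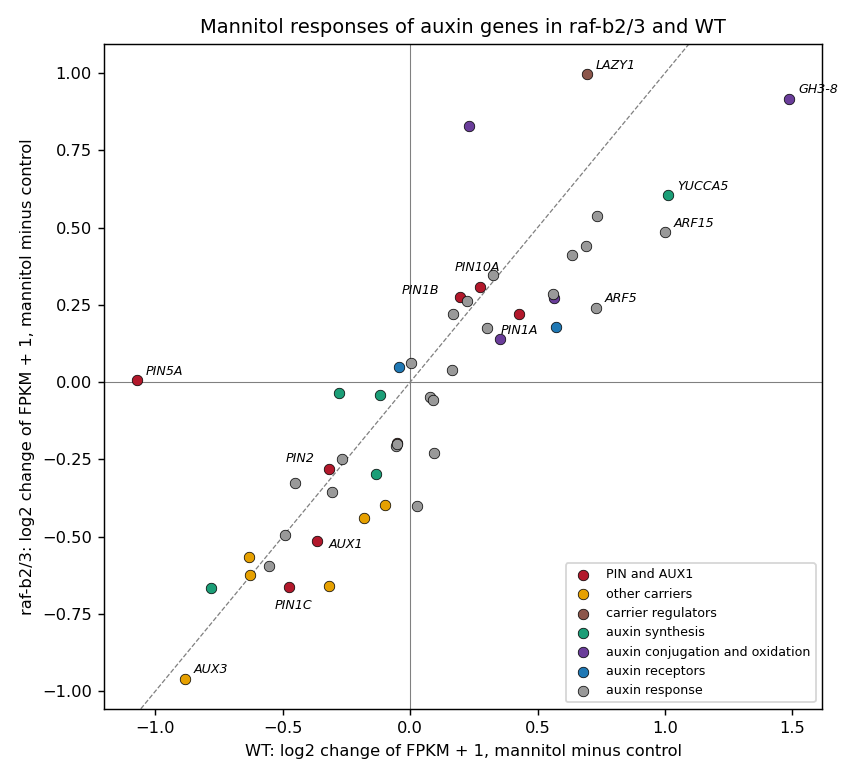
Mannitol response of each tested auxin gene in raf-b2/3 (y axis) against that in WT (x axis), both as log2 change of FPKM + 1, coloured by list. The dashed line marks equal responses. PIN5A lies far to the left of it at -1.07 in WT and 0.01 in raf-b2/3, and ARF15 and ARF5 lie below it.

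Auxin synthesis and response genes went both ways, and the conjugation and oxidation genes called were higher. TAA1, for the aminotransferase of the first step of auxin synthesis, fell by 0.67 in raf-b2/3 and by 0.78 in WT (limma adjusted p 6.5e-05 and 1.5e-05). YUCCA5, for the step after it, was higher under mannitol by 0.61 in raf-b2/3 and by 1.01 in WT, with 1.08 ± 0.394 FPKM in raf-b2/3 mannitol and 0.356 ± 0.136 in raf-b2/3 control, and 1.45 ± 0.129 FPKM in WT mannitol and 0.213 ± 0.0519 in WT control (SD, n = 3 each). YUCCA5 reached the level needed for the test only through mannitol libraries, so its calls had to be in this direction and carry no weight of their own. GH3-8, for an enzyme that conjugates auxin to amino acids, rose by 0.92 in raf-b2/3 and by 1.49 in WT (adjusted p 5.7e-04 and 1.1e-05). It had 5.69, 5.48 and 5.99 FPKM in raf-b2/3 mannitol and 2.49, 3.66 and 1.77 FPKM in raf-b2/3 control, and 8.77, 7.99 and 8.09 FPKM in WT mannitol and 1.66, 2.56 and 2.83 FPKM in WT control. Of 5 synthesis genes tested, 1 was higher and 1 lower in raf-b2/3, and 1 higher and 2 lower in WT, the higher one being YUCCA5. Of 4 conjugation and oxidation genes tested, 2 were higher in each genotype, not necessarily the same 2, and none was lower. The ratio of the mannitol mean to the control mean was 1.91 in raf-b2/3 and 1.08 in WT for GH3-2. For DAO it was 1.22 in raf-b2/3 and 1.54 in WT. In WT, GH3-2 had 6.79, 2.29 and 8.96 FPKM in control and 6.58, 5.48 and 7.36 FPKM under mannitol. Its WT ratio therefore rested on the low value of WT control 2. Among all loci, 35.6% were higher and 26.7% lower in raf-b2/3, and 37.7% higher and 25.5% lower in WT.

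Of 25 auxin response genes, 23 were tested, each for an ARF transcription factor that binds auxin-responsive promoters, and 9 were higher and 7 lower under mannitol in raf-b2/3, and 10 higher and 4 lower in WT. These counts were near the shares of all loci, 35.6% higher and 26.7% lower in raf-b2/3 and 37.7% higher and 25.5% lower in WT. The medians were 0.04 in raf-b2/3 and 0.09 in WT, close to those of all loci. Under mannitol 5 ARF genes were lower in raf-b2/3 than in WT, ARF5, ARF14, ARF15, ARF18 and ARF23, where 7.47% of all loci were lower, and the receptor gene TIR1 was lower too (log2 -0.28, adjusted p 0.0349). ARF5 and ARF15 were the auxin genes called in the interaction, both lower, where 2.98% of all loci were called, 1.02% higher and 1.96% lower.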

How the data were processed

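The authors deposited 1 table of FPKM values per locus and library, with their own group means, and with their log2 fold changes and p-values of mannitol against control in each genotype. The table does not record any adjustment of these p-values. Trimmomatic, DESeq2 and edgeR appear in the submitters' processing notes with no role for any of them. The aligner, annotation release and strand setting were not given in the sources used here. Libraries were made with a directional kit, per the labels' protocols. The deposited FPKM were whole multiples of the value of 1 fragment (tolerance 0.01) for 29358 of 29358 loci, which gave back the fragments, 37534836 to 39792489 per library. At that depth a low gene such as PIN9 rests on few fragments, and Poisson intervals cover counting error only.

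Groups came from the sample labels. Tests were made with limma 3.58.1 in R 4.3.3 (limma-trend on log2(FPKM + 1), a mean per group, 12 libraries fitted together, residual and prior degrees of freedom 12.1), over loci with at least 1 FPKM in at least 3 libraries, with Benjamini-Hochberg adjustment over all of them and calls at 0.05. The 5 comparisons were mannitol against control in each genotype, raf-b2/3 against WT with and without mannitol, and the interaction (raf-b2/3 response minus WT response). The fits were tested on simulated data. Tables were handled with Python 3.11.15, pandas 2.3.3 and scipy 1.17.1. Alternatives were a pseudocount of 0.1, no filter, median-of-ratios scaling, quantile normalization, a replicate block, limma-voom on recovered fragments, only the groups of the comparison, and leaving out each library or both WT control 2 and raf-b2/3 mannitol 3. For PIN9 and PIN5B, limma-voom with no filter was added after the data were seen.

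The text names the 9 transporter genes, genes of the other auxin lists that were called and had changed by 1 or more on the log2 scale, and the nearest profiles of each called transporter gene. Other genes named were picked after their values were seen. The transporter genes and lists were chosen with earlier results of these data known. Locus numbers and names were given from general knowledge and checked against a RefSeq gene table by chromosome and gene order. Of 83 entries, 49 matched, 30 had no symbol there, 3 had several, and 1 lay on another chromosome and was dropped. A further 3 were not in the deposited table, which left 79. All 8 PIN names matched, and AUX1 had no symbol there.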

Additional observations from a re-analysis of the deposited data

Results flagged for a closer look

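By the interaction test, the mannitol response of 2 of the 23 tested auxin response factor genes differed between the genotypes. The other auxin lists had no call, and 2.98% of all tested loci were called. These 2 genes were not examined under the alternatives. ARF5 had 11.1, 10.3 and 10.2 FPKM in raf-b2/3 mannitol and 8.43, 8.87 and 8.90 FPKM in raf-b2/3 control, and 12.8, 13.1 and 13.2 FPKM in WT mannitol and 7.27, 7.62 and 7.48 FPKM in WT control. It rose under mannitol in both genotypes, by 0.24 in raf-b2/3 and 0.73 in WT (limma adjusted p 0.0045 and 7.4e-07), and the interaction was -0.49 (SE 0.09, adjusted p 0.0118). ARF15 had 31.0, 28.3 and 33.0 FPKM in raf-b2/3 mannitol and 21.2, 21.9 and 21.8 FPKM in raf-b2/3 control, and 43.6, 44.3 and 41.2 FPKM in WT mannitol and 19.9, 22.5 and 20.8 FPKM in WT control. Its interaction was -0.51 (SE 0.10, adjusted p 0.0149). For both genes the raf-b2/3 mannitol libraries lay between the raf-b2/3 control and WT mannitol libraries without overlap.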

How the results depend on the processing

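Of 702 values of single genes under the alternatives, 687 stayed on the same side of the threshold as in the reported fit, 8 lost the call, 7 gained it, and 0 changed direction while called. Most of the 702 belonged to comparisons not called in the reported fit, so the 687 say little about the calls. In WT, 2 transporter genes were higher as reported, 3 with no filter, 1 under median-of-ratios scaling, 0 under quantile normalization, 1 with WT control 2 and raf-b2/3 mannitol 3 both left out, and 1 to 3 with each library left out in turn. In raf-b2/3 the count was 1 as reported, 2 with no filter (PIN1B and PIN5B), and 1 to 2 with each library left out. The interaction called 0 transporter genes higher, and 0 to 1 with a library left out, the 1 being PIN5A without raf-b2/3 control 1. Over all loci, the genotypes without mannitol gave 272 higher and 132 lower, 102 and 66 with only the 2 groups fitted, 177 higher with both libraries left out, and 100 to 277 higher and 73 to 148 lower with each left out. The lowest of these higher counts came without raf-b2/3 control 2. Under mannitol the genotypes gave 1873 higher and 1671 lower, and 1083 to 2096 and 965 to 1765 with each library left out, lowest without WT mannitol 1. The interaction gave 228 higher and 438 lower, 149 higher with a pseudocount of 0.1, 129 and 238 with limma-voom, 363 higher with both libraries left out, and 78 to 294 and 185 to 451 with each left out, lowest without WT mannitol 1. It needs all 4 groups, so no fit of only 2 groups was made. The causes of these shifts were not tested. Median-of-ratios scaling gave 6943 higher and 6841 lower in raf-b2/3 and 7081 higher and 6852 lower in WT. Libraries with the same replicate number share only a number: their deviations from group means had r of -0.31 to 0.26 for number 1, and 0 of 12 libraries correlated best with their own number in every other group. With a replicate block the counts were 7903 and 5953 in raf-b2/3, 8420 and 5687 in WT, 209 and 124 between genotypes without mannitol, 1772 and 1602 under mannitol, and 173 and 383 in the interaction, and the block changed no transporter call.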
